A study of Rattus norvegicus with 18 samples.

Results

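The genes described here are 10 genes that hypoxia is known to act on and that slow growth or are held back by such brakes: Ddit4, Ndrg1, Ccng2, Mxi1, Bhlhe40, Bhlhe41, Cited2, Cdkn1b, Stc2 and Myc. They were named from what is known of them, with earlier results of these data in view, and each was represented by the probe sets that carry its symbol alone. All 10 were measured, by 12 of the 27363 probe sets on the array and as 10 of the 14324 genes with a symbol of their own. Mxi1 had 3 probe sets and the others 1 each. Where a gene had several, the one with the highest average over the 18 arrays was used.

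The study measured RNA from 9L rat gliosarcoma, a cell line of a chemically induced brain tumour of the Fischer rat, in 18 samples that form 6 groups of 3. The hypoxic and normoxic tumour groups were laser-captured regions of the same 3 tumours, chosen as positive or negative for EF5, a nitroimidazole whose adducts mark cells at low oxygen. The first tumours were raised under the flank skin of 6-week-old male Fischer 344 rats, and pieces of passage 5 or 6 were then tied to the epigastric vessels of isogenic hosts. Apart from EF5 in the tumours, the labels name no transgene or drug treatment for any group. Every tumour region also held cells of the host. The 4 culture groups were 9L cells in medium with 12% newborn calf serum, kept for 6 h or 16 h at about 20% oxygen (normoxic) or 0.2% oxygen (hypoxic). Culture samples carry the numbers 6, 13 and 26 at 6 h and 22, 28 and 29 at 16 h, in both oxygen groups of a time, and the labels do not say whether they came from separate experiments, so their spread may be technical.

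Cells short of oxygen stabilise HIF-1α and HIF-2α, transcription factors that pair with ARNT and bind a short DNA core, the hypoxia response element. Besides genes of glycolysis and vessel growth, HIF switches on genes that lower the demand for energy. Ddit4 (REDD1) acts through the TSC complex to turn off mTORC1, the kinase that drives protein synthesis. Mxi1 competes with MYC for its partner MAX and represses MYC target genes, while cyclin G2 (Ccng2) and p27 (Cdkn1b) hold cells out of division. Bhlhe40 and Bhlhe41 (DEC1 and DEC2) are repressors that also act on the circadian clock. Cited2 competes with HIF-1α for the coactivators CBP and p300, Ndrg1 is a stress-induced protein linked to differentiation, and Stc2 is a secreted stanniocalcin. Myc itself drives growth and is the exception among the 10.

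The stretch of 250 bases before the start of transcription is shown for 3 members that rose in culture and for Stc2, which did not pass the test anywhere in hypoxia, to show where the core of a hypoxia response element occurs in them. They are RefSeq sequences of the rat build GRCr8, on the strand of the gene and ending at the base before the start. Ddit4 lies at chr20:28437038-28437287 on the minus strand, Ccng2 at chr14:15097191-15097440 on the minus strand, Bhlhe40 at chr4:143174200-143174449 on the plus strand and Stc2 at chr10:16755258-16755507 on the plus strand. Capitals mark ACGTG or GCGTG read on either strand, and overlapping matches form 1 run.
Ddit4: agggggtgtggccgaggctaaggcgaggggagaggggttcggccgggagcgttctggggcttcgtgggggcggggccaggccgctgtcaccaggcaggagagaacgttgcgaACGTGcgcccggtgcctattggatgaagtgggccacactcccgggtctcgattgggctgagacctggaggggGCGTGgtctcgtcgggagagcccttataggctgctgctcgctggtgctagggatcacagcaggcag
Ccng2: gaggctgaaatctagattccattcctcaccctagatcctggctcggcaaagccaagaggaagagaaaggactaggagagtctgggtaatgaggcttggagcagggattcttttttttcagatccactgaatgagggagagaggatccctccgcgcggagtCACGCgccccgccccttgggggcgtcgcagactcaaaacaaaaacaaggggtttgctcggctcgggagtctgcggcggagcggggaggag
Bhlhe40: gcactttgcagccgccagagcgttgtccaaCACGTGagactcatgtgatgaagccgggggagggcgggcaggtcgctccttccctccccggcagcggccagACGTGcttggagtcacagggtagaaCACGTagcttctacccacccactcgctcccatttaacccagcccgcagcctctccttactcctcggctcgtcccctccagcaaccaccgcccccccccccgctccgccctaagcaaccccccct
Stc2: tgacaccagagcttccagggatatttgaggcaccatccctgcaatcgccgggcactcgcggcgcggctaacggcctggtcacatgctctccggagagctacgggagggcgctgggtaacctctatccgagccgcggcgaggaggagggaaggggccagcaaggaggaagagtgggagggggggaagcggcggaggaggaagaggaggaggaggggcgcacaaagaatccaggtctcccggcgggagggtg
In Ddit4 the matches lie at -138 to -134 (ACGTG) and -66 to -62 (GCGTG), counted back from the start. Ccng2 has a single GCGTG, on the opposite strand at -90 to -86. Bhlhe40 has 3 marked runs, and the one that begins at -220 is CACGTG, which reads as ACGTG on both strands and is also the E-box that basic helix-loop-helix proteins such as MYC, MXI1 and BHLHE40 itself are known to bind. No match occurs in the Stc2 stretch.

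The promoter table matched 8 of the 10 members, all but Ndrg1 and Myc, and 6 of the 8 held at least 1 match: Ddit4, Ccng2, Mxi1, Bhlhe40, Bhlhe41 and Cited2. Cdkn1b and Stc2 held none. Among all 33469 listed promoters of the same length, 36.7% held either core, 16.6% ACGTG and 25.9% GCGTG, and 5.59% held CACGTG. That E-box occurred in 3 members, Bhlhe40, Bhlhe41 and Cited2. These matches are letters in a sequence and no evidence of binding, and the listed starts of Mxi1, Bhlhe41 and Cdkn1b differ from the annotated gene ends. The 8 member stretches held from 57.2% (Ccng2) to 75.2% (Bhlhe41) G and C. The shares over all promoters were not matched for base composition, so they do not show whether the members hold more cores than similar sequences.

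**Figure D1:**
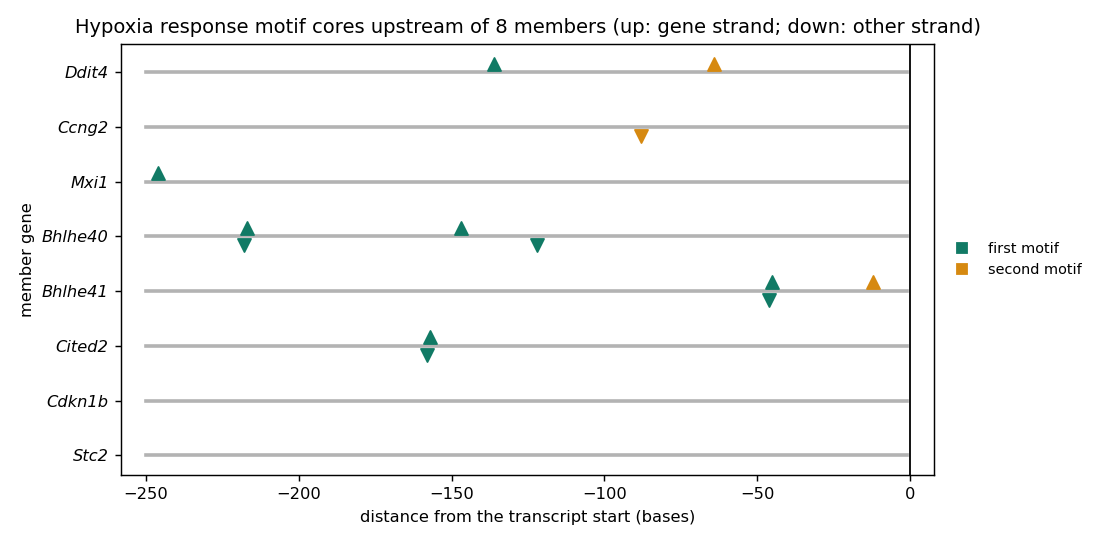
Position of each match to the 5-letter cores ACGTG (first motif, green) and GCGTG (second motif, orange) in the 250 bases before the transcript start of 8 members, in bases from the start. Triangles pointing up are on the strand of the gene and those pointing down on the other strand; 6 members have matches, and Cdkn1b and Stc2 have none.

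Every level below is a log2 probe set signal as the authors deposited it. Tumour arrays had medians of 6.36 to 6.5 and culture arrays of 6.02 to 6.19, and arrays of a group correlated at 0.937 to 0.964 in tumours and 0.988 to 0.996 in cultures. The normoxic region of tumour 3 stood apart, correlating at 0.941 with the mean normoxic culture against 0.865 to 0.892 for the other tumour samples. Of the glial and stem cell markers, Vim was high in all groups (means of 12.05 to 12.32), while Gfap and S100b had group means of 5.0 to 5.53 and 4.47 to 5.31, below the array medians. Sox2 had group means from 6.76 in 6 h hypoxic cultures to 8.03 in hypoxic tumour regions, above the array medians. Those of Nes ran from 6.17 in 16 h normoxic cultures to 7.48 in normoxic tumour regions. Host cells differed between the tumour regions: the mean of 9 T and NK cell markers was 6.72 to 7.95 in normoxic and 6.06 to 6.22 in hypoxic regions, with 9 of 9 lower, and that of 10 macrophage markers was 7.41 to 7.96 against 6.91 to 7.36, with 7 of 10 lower. In cultures the same means were 4.92 to 5.29 and 5.52 to 5.71. Both normoxic tumour ranges had their top in tumour 3 (7.95 and 7.96). Normoxic regions of tumours 1 and 2 gave 6.72 and 6.73 for T and NK cells, and 7.42 and 7.41 for macrophages. Neutrophil markers were higher in hypoxic regions for 5 of 5 by the mean over the 3 tumours, with a median of 0.27. None was higher at an unadjusted p under 0.05 (limma). The largest rise was in tumour 3, where the mean of the 5 markers went from 5.0 to 6.02. In tumour 1 it went from 5.06 to 5.36, and in tumour 2 it was slightly lower in hypoxia (5.298 to 5.275). Markers of endothelium, pericytes, skeletal muscle, fat and glia had medians from -0.036 to 0.17. The part of these cells in the tumour results below was not tested, and a lower signal in a region may stem from fewer cells of a kind or from less RNA in each, which cannot be told apart.

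After 16 h of hypoxia 6 members, Ccng2, Ddit4, Ndrg1, Bhlhe40, Bhlhe41 and Mxi1, rose in cultures, by 2.47-fold (Mxi1) to 4.09-fold (Ccng2). After 6 h, Ndrg1 and Mxi1 passed the test, and the other 4 of the 6 were higher by 0.79 to 1.08 on the log2 scale. With the culture number fitted as a block, Ddit4 and Ccng2 passed at 6 h as well. The 6 h call of Mxi1 and the 16 h call of Bhlhe40 were each lost in 9 of 15 alternatives. In hypoxic tumour regions Ndrg1 and Bhlhe40 were higher by 2.06 and 2.04, more than 4-fold, and Bhlhe41 and Ccng2 by 0.98 and 0.83, whereas Ddit4 and Mxi1 stood at 0.10 and 0.05. Stc2, Cited2, Cdkn1b and Myc passed the test in none of the 3 comparisons. In tumours no probe set on the array passed (0%), so the absence of calls there is not particular to these genes, whereas at 16 h 0.603% of probe sets were called higher.

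**Figure D2:**
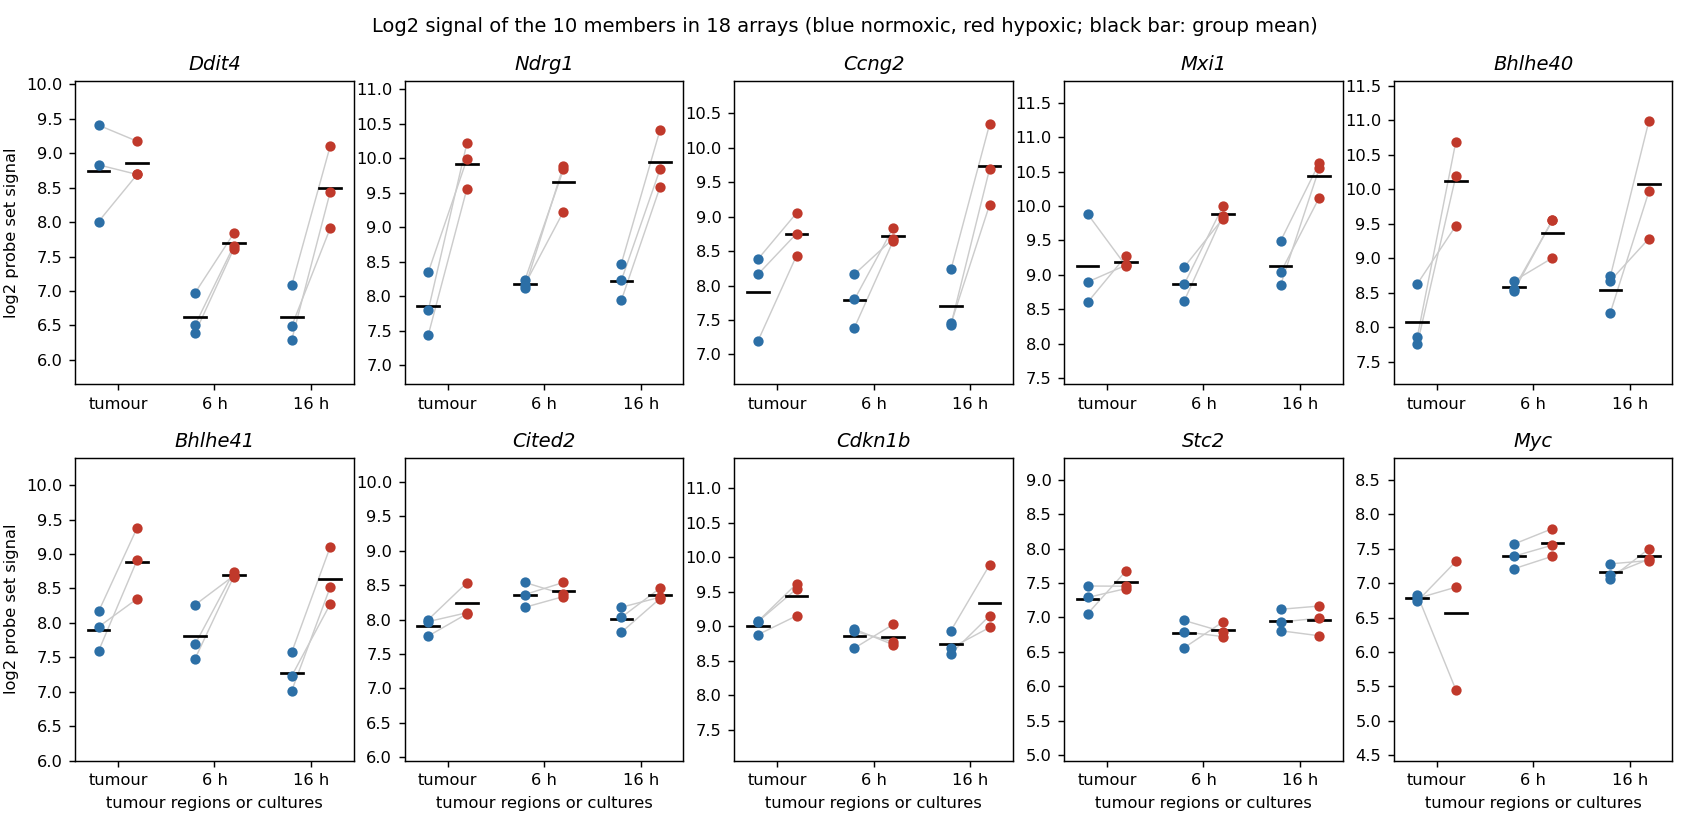
Log2 probe set signal of each of the 10 members in all 18 arrays, with normoxic samples in blue, hypoxic samples in red, group means as black bars and grey lines joining the samples of 1 tumour or culture number. All panels span the same number of log2 units; the 3 hypoxic samples lie above the 3 normoxic ones in all 3 settings for Ndrg1, Ccng2, Bhlhe40 and Bhlhe41, and in both cultures but not in tumours for Ddit4 and Mxi1.

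Ddit4, the brake on mTORC1 (probe set 10832920), had levels of 6.51, 6.39 and 6.97 in the 6 h normoxic cultures 6, 13 and 26, and 7.65, 7.61 and 7.84 in their hypoxic counterparts. At 16 h the normoxic cultures 22, 28 and 29 gave 6.29, 7.08 and 6.49 and the hypoxic ones 8.44, 9.11 and 7.91. At both times every hypoxic culture was above every normoxic one. The difference was 1.08 ± 0.26 (SE) at 6 h, with an adjusted p of 0.292, and 1.87 ± 0.26 at 16 h, 3.65-fold, with an adjusted p of 0.00345. Same-numbered cultures deviated together, and with that number fitted as a block the 6 h difference passed as well (adjusted p = 0.0170).

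In the tumours the regions did not part for Ddit4. The normoxic regions of tumours 1, 2 and 3 gave 8.83, 9.41 and 8.01, and the hypoxic regions 8.69, 9.17 and 8.69. The ranges overlapped, and Ddit4 was lower in the hypoxic region in 2 of the 3 tumours. The difference was 0.10 ± 0.24, with a 95% interval from -0.49 to 0.69, which leaves out the 16 h value of 1.87. Without tumour 3, whose normoxic region stood apart, it was -0.19. All 6 tumour levels lay above all 6 normoxic cultures, and the order of the group means ran from hypoxic tumour (8.85), normoxic tumour (8.75) and 16 h hypoxic culture (8.49), whose ranges overlapped, through the 6 h hypoxic culture (7.70) to the normoxic cultures at 6 h (6.63) and 16 h (6.62), which overlapped each other.

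Ndrg1 (probe set 10904169) gave, for tumours 1, 2 and 3, normoxic levels of 8.35, 7.79 and 7.44 beside hypoxic levels of 9.99, 10.22 and 9.56. The 6 h cultures gave 8.17, 8.23 and 8.12 in normoxia and 9.23, 9.84 and 9.89 in hypoxia, and the 16 h cultures 8.23, 8.47 and 7.94 in normoxia and 9.84, 10.41 and 9.58 in hypoxia. All 9 hypoxic samples lay above all 9 normoxic ones. Ndrg1 rose by 1.48 ± 0.21 at 6 h, 2.79-fold, with an adjusted p of 0.00829, and by 1.73 ± 0.21 at 16 h, 3.31-fold, with an adjusted p of 0.00115. The 6 h call was lost without hypoxic culture 13 (0.0629) or 26 (0.0699) and with the spread of all 18 arrays (0.0962). The tumour difference was 2.06 ± 0.22, 4.17-fold, higher in 3 of 3 tumours, with an adjusted p of 0.145 (unadjusted p = 6.85e-05). The hypoxic groups had means of 9.94 (16 h), 9.92 (tumour) and 9.65 (6 h), with overlapping ranges, and the normoxic groups of 8.21, 7.86 and 8.17 in the same order. For scale, Bnip3 and Car9, classical HIF targets for mitophagy and for pH control, had tumour differences of 3.21 ± 0.37 and 1.94 ± 0.19 and 6 h differences of 1.64 ± 0.11 and 1.6 ± 0.19.

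Ccng2, the unconventional cyclin G2 that holds cells out of the cycle (probe set 10775761), rose by 2.03 ± 0.28 at 16 h, 4.09-fold, with an adjusted p of 0.00259. Its 16 h levels were 7.43, 8.24 and 7.45 in normoxic and 9.70, 10.34 and 9.18 in hypoxic cultures 22, 28 and 29. At 6 h they were 7.39, 7.80 and 8.17 in normoxia and 8.64, 8.84 and 8.68 in hypoxia, a difference of 0.94 ± 0.28 (adjusted p = 0.595, and 0.0464 with the culture number as a block). No hypoxic culture overlapped the normoxic ones at either time. The tumour levels were 8.38, 7.19 and 8.16 in normoxic and 9.05, 8.44 and 8.75 in hypoxic regions, higher in 3 of 3 tumours by 0.83 ± 0.21 (adjusted p = 0.341). The normoxic region of tumour 2 was the lowest of the 18 samples. Hypoxic cultures at 16 h (mean 9.74) stood above all other groups without overlap, followed by the hypoxic tumour (8.75) and 6 h culture (8.72) groups, which overlapped, and by the 3 normoxic groups (7.71 to 7.91), which did too.

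Cdkn1b, which encodes the cyclin-dependent kinase inhibitor p27 (probe set 10859254), showed smaller differences. In the tumours it gave 8.88, 9.07 and 9.07 in normoxic and 9.15, 9.62 and 9.54 in hypoxic regions, and at 16 h 8.60, 8.94 and 8.68 against 9.15, 9.89 and 8.98. In both settings the groups did not overlap. The differences were 0.43 ± 0.18 (adjusted p = 0.563) and 0.60 ± 0.19 (adjusted p = 0.294), neither past the threshold. At 6 h the ranges overlapped (8.68 to 8.96 and 8.73 to 9.03), and the difference was -0.01 ± 0.19, with an interval from -0.43 to 0.40. p27 is controlled largely by protein breakdown, which RNA does not show.

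Mxi1, the MYC antagonist, was read by 3 probe sets. The one with the highest mean (10716078) gave 8.86, 8.62 and 9.11 in 6 h normoxic and 9.99, 9.86 and 9.81 in 6 h hypoxic cultures, and 8.86, 9.49 and 9.04 against 10.55, 10.63 and 10.12 at 16 h. Each hypoxic culture exceeded each normoxic one of its time. Mxi1 rose by 1.02 ± 0.18 at 6 h, 2.03-fold, with an adjusted p of 0.0322, and by 1.30 ± 0.18 at 16 h, 2.47-fold, with an adjusted p of 0.00253. The other 2 probe sets gave 0.87 and 0.87 at 6 h, without passing (adjusted p = 0.0841 and 0.101), and passed at 16 h with 1.12 and 1.12. The 16 h call was lost with the spread of all 18 arrays (adjusted p = 0.0791). The 6 h call was lost in 9 of 15 alternatives, with an adjusted p of up to 0.724. Among them were the spread of all 18 arrays, cyclic loess and median centring. It was also lost when any of 5 of the 6 6 h arrays was left out (adjusted p 0.120 to 0.205).

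The tumour regions showed no such step for Mxi1: tumours 1, 2 and 3 gave 8.60, 9.88 and 8.90 in normoxic and 9.28, 9.12 and 9.14 in hypoxic regions. Tumour 2 fell the other way, its normoxic region being the highest of the 6, and the hypoxic levels lay within the normoxic range. The difference was 0.05 ± 0.30, with an interval from -0.67 to 0.78, and the other probe sets gave 0.28 and 0.27. Without tumour 3 it was -0.04. In the order of group means, hypoxic cultures at 16 h (10.43) and 6 h (9.89) and hypoxic tumour regions (9.18) did not overlap one another, and the 3 normoxic groups (8.86 to 9.13) overlapped. The normoxic region of tumour 2 reached the level of the 6 h hypoxic cultures.

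Myc, the transcription factor of growth that Mxi1 opposes (probe set 10896814), gave 7.21, 7.39 and 7.57 in 6 h normoxic cultures and 7.39, 7.55 and 7.79 in hypoxic ones, a difference of 0.19 ± 0.13. At 16 h it gave 7.07, 7.12 and 7.28 against 7.50, 7.35 and 7.33, a difference of 0.24 ± 0.13 with an adjusted p of 0.702. Myc was thus higher in 6 of 6 culture pairs, by less than the test could call. In the tumours it gave 6.78, 6.83 and 6.74 in normoxic and 6.94, 5.45 and 7.32 in hypoxic regions. The hypoxic region of tumour 2 was by far the lowest of the 18 samples, and the difference of -0.21 ± 0.38 turned to 0.37 without that tumour.

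Bhlhe40 (DEC1, probe set 10857610) gave, in tumours 1, 2 and 3, levels of 7.85, 8.63 and 7.75 in normoxic and 10.69, 9.47 and 10.20 in hypoxic regions. Every hypoxic region lay above every normoxic one, but the step in tumour 2, 0.84, was under that of tumours 1 and 3 (2.84 and 2.45). The mean difference was 2.04 ± 0.39, 4.12-fold, with an adjusted p of 0.244. The 6 h cultures gave 8.67, 8.52 and 8.56 against 9.00, 9.55 and 9.55, a difference of 0.79 ± 0.31 (adjusted p = 0.929). At 16 h they gave 8.21, 8.74 and 8.67 against 9.97, 10.99 and 9.29, also without overlap. Bhlhe40 rose there by 1.54 ± 0.31, 2.92-fold, with an adjusted p of 0.0401, a call lost in 9 of 15 alternatives, among them without each 16 h normoxic culture (0.0787 to 0.208) and without hypoxic culture 22 (0.117).

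Bhlhe41 (DEC2, probe set 10867026) gave 7.59, 7.94 and 8.17 in normoxic and 8.92, 8.35 and 9.38 in hypoxic tumour regions. Culture levels were 7.48, 7.69 and 8.26 against 8.67, 8.74 and 8.68 at 6 h, and 7.01, 7.57 and 7.23 against 8.52, 9.11 and 8.28 at 16 h. As for its relative, hypoxic and normoxic samples did not overlap in any of the 3 settings, and tumour 2 again gave the smallest step of the tumours (0.41 against 1.32 and 1.22). Bhlhe41 rose at 16 h by 1.36 ± 0.22, 2.57-fold, with an adjusted p of 0.00922, which was 0.0709 without normoxic culture 22 and 0.0787 with the spread estimated from all 18 arrays. The differences of 0.98 ± 0.24 in tumours (adjusted p = 0.328) and 0.89 ± 0.22 at 6 h (adjusted p = 0.300) did not pass. Both repressors had overlapping levels in the 3 hypoxic groups, 9.37 to 10.12 for Bhlhe40 and 8.64 to 8.88 for Bhlhe41 in group means.

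Cited2, which limits HIF by competing for its coactivators (probe set 10701846), gave 7.76, 7.97 and 8.0 in normoxic and 8.08, 8.10 and 8.53 in hypoxic tumour regions, a difference of 0.33 ± 0.19 (adjusted p = 0.642). At 6 h the ranges were 8.18 to 8.54 and 8.33 to 8.54, and at 16 h 7.81 to 8.18 and 8.30 to 8.45. Only the 6 h groups overlapped. The differences were 0.05 ± 0.12 and 0.35 ± 0.12 (adjusted p = 0.354), and neighbouring groups overlapped all along the order of its 6 means (7.91 to 8.41).

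Stc2 (probe set 10732644), a secreted glycoprotein of the stanniocalcin family, had overlapping ranges in normoxic and hypoxic cultures: 6.56 to 6.96 and 6.72 to 6.93 at 6 h, and 6.81 to 7.12 and 6.73 to 7.17 at 16 h. The culture differences were 0.05 ± 0.14 and 0.01 ± 0.14, with intervals from -0.25 to 0.34 and from -0.28 to 0.30. In tumours it gave 7.29, 7.46 and 7.05 in normoxic and 7.42, 7.45 and 7.68 in hypoxic regions. Most of that difference, 0.25 ± 0.21, came from tumour 3 (0.63), and without it the value was 0.06.

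**Figure D3:**
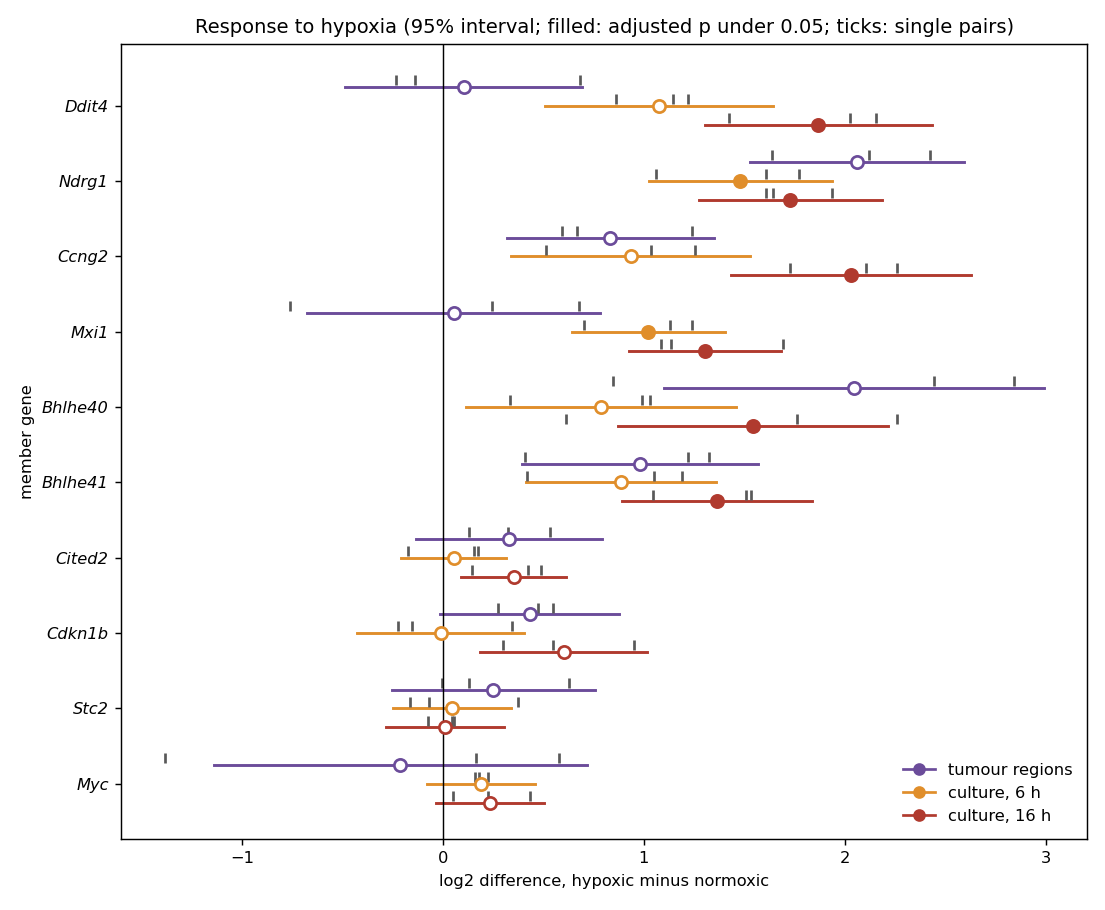
Log2 difference, hypoxic minus normoxic, of each of the 10 members in tumour regions (purple) and in cultures at 6 h (orange) and 16 h (red), with 95% intervals from limma and grey ticks for the single tumours or culture numbers. Filled points passed an adjusted p of 0.05: 2 members at 6 h, 6 at 16 h and none in tumours.

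The members' shares are set beside those of all probe sets as a description, since the members were chosen with results known. In tumours limma called 0 of the 10 members and 0 of 27363 probe sets (0%), the smallest adjusted p being 0.106. At an unadjusted p under 0.05, 4 members were higher, Ndrg1, Ccng2, Bhlhe40 and Bhlhe41, and 3.42% of all probe sets were. Hypoxic and normoxic regions did not overlap for 6 members, all higher in hypoxia, beside 11.8% of probe sets. The median difference of the members was 0.38, from -0.21 (Myc) to 2.06 (Ndrg1), and that of all genes was 0.08. When the spread was estimated from all 18 arrays, 4 members passed, the same genes as above, with 1408 probe sets. That fit shares 1 spread between tumours and cultures, whose median residual SDs were 0.236 and 0.157, so it may understate the tumour error. Without tumour 1, on only 4 arrays, Ndrg1 and Bhlhe40 passed, with 563 probe sets.

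At 6 h, 2 of 10 members were called higher, where 0.183% of probe sets were, and none lower, where 0.00731% were. The count was 4 when the culture number was fitted as a block. Hypoxic and normoxic cultures did not overlap for 6 members, beside 5.6% of probe sets, and the members' median was 0.84 where that of all genes was 0.01. At 16 h, 6 of 10 were called higher and none lower, where 0.603% and 0.102% of probe sets were. For 9 members, all but Stc2, every hypoxic culture was above every normoxic one, beside 6.6% of probe sets. The median of the members was 1.33 and that of all genes -0.03. Leaving out single 6 h arrays gave 0 to 2 calls at 6 h: 0 without hypoxic culture 13 or 26, and 1 without hypoxic culture 6 or normoxic culture 6 or 13.

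Responses at the 2 times were compared directly in 1 model, with different cultures at each time. For 9 of the 10 members the 16 h response was the larger, by a median of 0.39. None passed. The differences of Ccng2, 1.10 ± 0.39 (unadjusted p = 0.0145), Ddit4, 0.79 ± 0.37 (unadjusted p = 0.0516), Bhlhe40, 0.76 ± 0.44 (unadjusted p = 0.109), and Cdkn1b, 0.61 ± 0.27 (unadjusted p = 0.0423), all had an adjusted p of 0.982. Limma called 0 of 27363 probe sets (0%) here, and at an unadjusted p under 0.05 it gave Ccng2 and Cdkn1b among members and 1.96% of probe sets in that direction. The spread over 3 samples per group thus leaves the time course of these genes unresolved.

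Normoxic cultures gave the level of the brakes without hypoxia. Between 6 h and 16 h limma called no member, while 2.45% of probe sets were called lower and 2.41% higher. At an unadjusted p under 0.05, Bhlhe41 was lower at 16 h (-0.54 ± 0.22), as was Cited2 (-0.35 ± 0.12), where 10.5% of probe sets were lower. Ddit4 stood at 6.63 and 6.62.

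Tumour and culture responses differed for Ddit4. The 3 tumours gave hypoxic minus normoxic differences of -0.14, -0.23 and 0.68, and the 6 culture pairs 1.15, 1.22 and 0.86 at 6 h and 2.15, 2.03 and 1.43 at 16 h. The highest tumour lay below the lowest culture pair. The tumour response minus the mean culture response was -1.37 ± 0.24 on the log2 scale (limma, adjusted p = 0.0316), in a comparison that called 0.987% of probe sets in that direction, and 1 of 10 members. The direction was negative under all 17 alternatives, but the call was lost in 9 of them: with array weights by kind of sample (adjusted p = 0.115), without pair blocks (0.129), with quantile normalization (0.0942) and without each culture pair in turn (0.0508 to 0.101). Without tumour 3 the difference was -1.66 (adjusted p = 0.00862).

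By its probe set with the highest mean, Mxi1 gave tumour differences of 0.68, -0.76 and 0.25 and culture pairs from 0.70 to 1.69, without overlap. In probe set 10716064 the ranges overlapped, tumour 1 (0.72) lying above the lowest culture pair (0.67). The tumour minus culture response was -1.11 ± 0.29, with an adjusted p of 0.110, which was 0.0329 without tumour 1, and it was -0.70 without tumour 2. The other 2 probe sets gave -0.71 ± 0.22 and -0.72 ± 0.19 (adjusted p = 0.152 and 0.115). Ccng2 had a difference of -0.65 ± 0.22 (adjusted p = 0.191), with overlapping pairs.

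The other members did not part in that way. Bhlhe40 and Ndrg1 had the larger response in tumours, by 0.88 ± 0.46 and 0.46 ± 0.22 (adjusted p = 0.361 and 0.319), and the intervals, -0.14 to 1.89 and -0.02 to 0.94, include 0. Bhlhe41 differed by -0.14 ± 0.25, Cited2 by 0.13 ± 0.16, Cdkn1b by 0.14 ± 0.19, Stc2 by 0.22 ± 0.18 and Myc by -0.43 ± 0.35. These tests pool the spread of both kinds of sample, although the median residual SD was 0.236 in tumours and 0.157 in cultures.

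**Figure D4:**
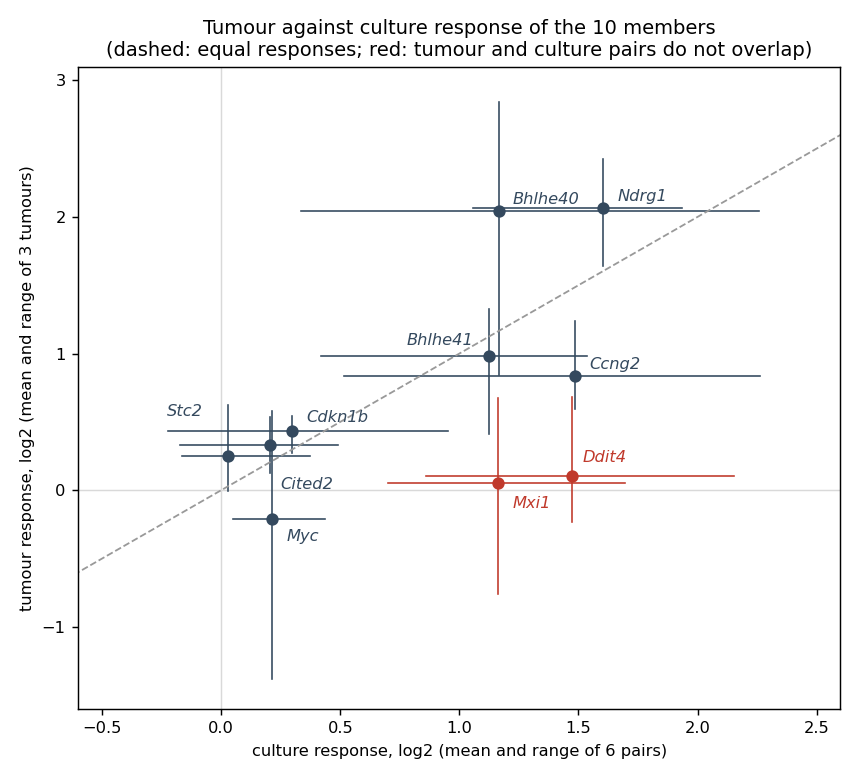
Mean tumour response (3 tumours) against mean culture response (6 culture pairs) of the 10 members, as log2 hypoxic minus normoxic, with lines for the full range and a dashed line of equal responses. Ddit4 and Mxi1 (red) lie below the line with tumour means of 0.10 and 0.05 against culture means of 1.47 and 1.16, and their tumour and culture ranges do not overlap for the probe sets drawn; a second Mxi1 probe set does overlap.

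Normoxic tumour regions were negative for EF5 and carry no oxygen value, while normoxic cultures were kept at about 20% oxygen. Oxygen may thus differ between them. Between these normoxic groups, Ddit4 was higher in tumour regions than in cultures by 2.13 ± 0.28, 4.37-fold, with an adjusted p of 1.99e-05. The call held in all 17 alternatives (1.80 to 2.5). That comparison called 43.6% of all probe sets higher and 20.7% lower, and 2 of the 10 members, so a call is common there. Markers of every listed cell type moved the same way: 9 of 9 T and NK cell markers and 9 of 10 macrophage markers were called higher in tumours. So were 4 of 4 endothelium, 4 of 4 skeletal muscle, 3 of 3 fat, 4 of 5 glial, 2 of 4 pericyte and 2 of 5 neutrophil markers, and no marker was called lower. The part of these cells in the Ddit4 level was not tested. The labels do not say whether tumour and culture arrays were normalized together, and all genes had a median difference of 0.21. Centring the array medians took Ddit4 to 1.81.

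Stc2 was the other member called, higher by 0.41 ± 0.13 (adjusted p = 0.0119), and it was 0.09 after median centring and 0.31 without the normoxic region of tumour 2, neither past the threshold, nor was it past with cyclic loess (0.27) or array weights. Cited2 stood at -0.27 ± 0.12 (adjusted p = 0.0622) and turned to 0.22 with cyclic loess and 0.17 with quantile normalization. With median centring it was -0.59 and called (adjusted p = 0.000824), and it was also called without 16 h normoxic culture 28 (0.0377) or 6 h normoxic culture 13 (0.0404), so that its direction depends on the scaling. Myc stood at -0.49 ± 0.27 and Bhlhe40 at -0.49 ± 0.32, and Ndrg1, Ccng2, Mxi1, Cdkn1b and Bhlhe41 differed by -0.33 to 0.36, none past the threshold.

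Genes of the pathways that these brakes act on were followed through 7 lists. In none of the 3 hypoxia comparisons was any gene of the 7 lists called. Of 26 measured genes of the mTORC1 pathway (the kinase, its TSC and Rag regulators and its targets), 13 were higher and 13 lower at 16 h, with a median of 0.00055, and the medians were -0.04 in tumours and 0.01 at 6 h. Of 9 genes of the MAX network, which holds MYC's partners and rivals, the medians were 0.07 at 16 h and 0.0013 in tumours. Other cell cycle inhibitors and quiescence genes (19 measured) had medians of 0.10 at 16 h and 0.10 in tumours, with 5 higher and 1 lower at an unadjusted p under 0.05 at 16 h, where 4.41% and 3.79% of probe sets were.

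MYC target genes were lower on the whole in hypoxic cultures. Of 19 measured, 16 were lower and 3 higher after 16 h, with a median of -0.32 where all genes had -0.03. None passed the adjusted threshold, but 9 were lower at an unadjusted p under 0.05, beside 3.79% of probe sets, and none was higher. At 6 h 17 of 19 were lower, with a median of -0.12, and 1 was lower at that threshold, beside 2.03% of probe sets. In tumours 10 were higher and 9 lower, with a median of 0.01. Myc itself was slightly higher and Mxi1 higher in these cultures, as given above.

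Genes of the G1 and S phases, such as cyclins, their kinases and the factors that destroy p27, were lower on the whole in hypoxic tumour regions. Of 13 measured, 9 were lower there with a median of -0.40, 5 of them at an unadjusted p under 0.05, where 5.7% of probe sets were, while the medians were -0.01 at 6 h and -0.08 at 16 h. In the test of tumour against culture responses, E2f1, a transcription factor of the G1 to S step that is on this list and among the MYC targets, had a difference of -1.31 ± 0.21 (adjusted p = 0.0250). Sin3a, the corepressor that Mxi1 recruits and a gene of the MAX network list, had -0.77 ± 0.16 (adjusted p = 0.0492), near the threshold. They were the only genes called lower on these lists, 1 of 13, 1 of 19 and 1 of 9, where 0.987% of all probe sets were. This limma fit pools the spread of tumours and cultures. The T and NK cell markers given above were lower in hypoxic tumour regions, and their part was not tested. Of 12 clock genes 9 were higher in tumours and 7 at each culture time, with medians of 0.13, 0.06 and 0.17. Of 13 relatives of the members, such as Ccng1, Ndrg2 and Mxd1, the medians were 0.12, 0.04 and 0.13.

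**Figure D5:**
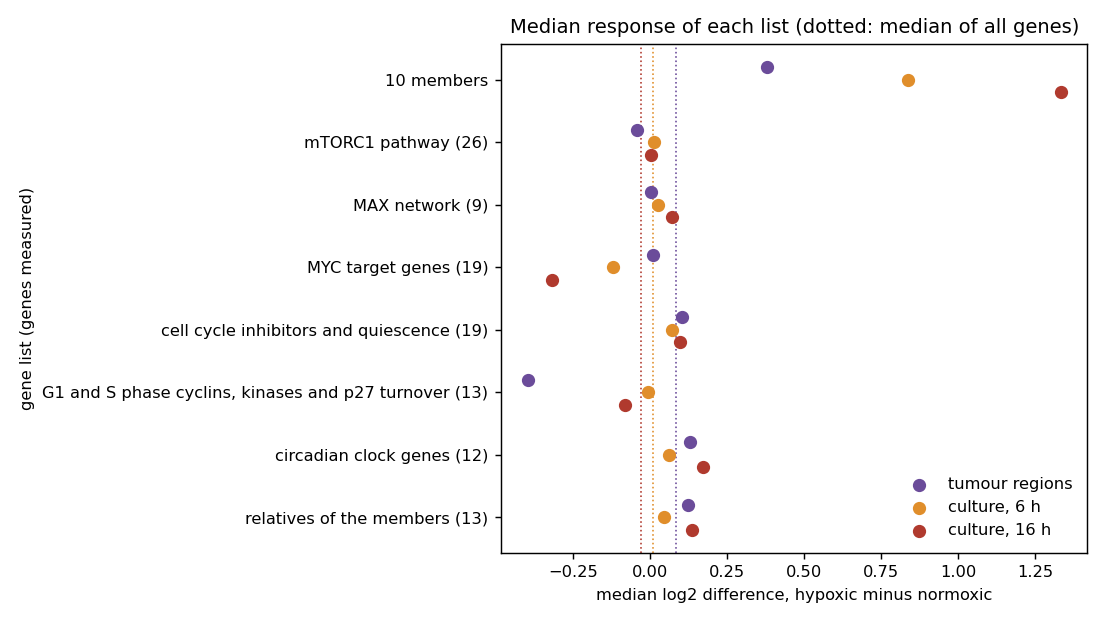
Median log2 difference, hypoxic minus normoxic, of the 10 members and of 7 gene lists (genes measured in brackets) in tumour regions (purple), 6 h cultures (orange) and 16 h cultures (red), with dotted lines at the median of all genes. The members lie at 0.38, 0.84 and 1.33, the MYC targets reach -0.32 at 16 h and the G1 and S phase genes -0.40 in tumours.

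Levels in the normoxic groups differed more on these lists than the responses did. Between normoxic tumour regions and normoxic cultures, 13 of 19 MYC targets were called lower in tumours and 2 higher (median -0.92), among them Tfrc, the transferrin receptor (-3.96 ± 0.35), Gnl3, a nucleolar GTPase (-2.91 ± 0.32), Nop58 (-2.08 ± 0.21) and Odc1, the first enzyme of polyamine synthesis (-1.33 ± 0.15). Of the G1 and S phase genes 8 of 13 were lower and 3 higher, led by Ccne2 (-2.14 ± 0.36) and Cks1b (-1.67 ± 0.15), with Ccnd2 higher by 1.11 ± 0.19. The Mxi1 relatives Mxd1 and Mxd4 were higher by 1.14 ± 0.21 and 0.88 ± 0.22. Of 19 cell cycle inhibitors 5 were higher and 7 lower, with Tob1 (-2.39 ± 0.17) and Ccng1, the relative of Ccng2 (-1.62 ± 0.29), among the latter. Of the mTORC1 list 7 genes were higher and 6 lower, with the S6 kinase gene Rps6kb1 at -1.45 ± 0.17. Clock genes were split as well, with Clock and Cry1 at -1.31 ± 0.17 and -1.34 ± 0.22 and Per1 and Nr1d1 higher by 1.15 ± 0.27 and 1.27 ± 0.35. In these the background of 20.7% lower and 43.6% higher applies.

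Between normoxic cultures at 6 h and 16 h, calls were fewer and all lower at 16 h: the MYC targets Rrp9 (-0.79 ± 0.12) and Srm (-0.92 ± 0.18), Mxd3 (-0.64 ± 0.10) and Mlx (-0.57 ± 0.11) of the MAX network, the antiproliferative gene Tob1 (-0.75 ± 0.14), Rragc of the Rag GTPases (-0.76 ± 0.15), E2f3 (-0.68 ± 0.14) and Cry1 (-0.67 ± 0.15). The adjusted p ran from 0.00392 to 0.0241. These were 2 of 19 MYC targets, 2 of 9 MAX network genes and 1 of 19 cell cycle inhibitors. The mTORC1 list gave 1 of 26, the G1 and S phase list 1 of 13 and the clock list 1 of 12. Mxd3 was also 1 of the 13 relatives. Over all probe sets 2.45% were called lower and 2.41% higher. Cultures of the 2 times carry different numbers, so time and culture set cannot be told apart.

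The genes whose pattern was most like that of a member were found by the root mean square distance between log2 profiles over the 18 arrays, each centred on its own mean. They are given as a description for the 6 members that passed a test. Ndrg1 was nearest to Car9 (0.34), Hk2, a hexokinase (0.40), and Bhlhe40 (0.46), where the median distance over all genes was 0.99. Bhlhe40 was nearest to the neuronal enolase Eno2 (0.42), the vessel growth factor gene Vegfa (0.46) and Ndrg1 (0.46). Bhlhe41 and Ccng2 shared 2 of their 3 nearest genes, Prkab2, a subunit of AMP-activated kinase (0.37 and 0.39), and the nuclear receptor coactivator Pnrc1 (0.43 and 0.51). The remaining gene was Gas6 for Bhlhe41 (0.40) and Bhlhe41 for Ccng2 (0.53). Ddit4 was nearest to the aldolase Aldoc (0.51), the lipin Lpin1 (0.51) and the transporter Abca4 (0.53), and Mxi1 to Plekha3 (0.38), Il1rap (0.40) and Polk (0.40). The median distance over all genes was 0.94 for Ddit4 and Bhlhe40, 0.90 for Ccng2, 0.75 for Mxi1 and 0.70 for Bhlhe41. All points share the 18 arrays, and tumour and culture levels weigh in each distance, which also grows with a gene's own spread.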

How the data were processed

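From 2 ng of RNA a sample, cDNA was amplified with the NuGEN Ovation WT-Pico kit and measured on the Affymetrix Rat Gene 1.0 ST platform, per the labels' protocols. The deposited log2 signals come from RMA, run by the authors in Partek 6.5b according to the submitters' processing notes. The sources do not say if tumour and culture arrays were processed in 1 run. Symbols were taken from GEO's annotation of the platform.

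From these values limma 3.58.1 in R 4.3.3 (lmFit and eBayes, two-sided, Benjamini-Hochberg over 27363 probe sets, threshold 0.05) fitted 7 comparisons. The tumour comparison used 6 arrays with the tumour as a block, the culture comparisons 12 arrays in 4 groups, and those between tumours and cultures all 18. The scripts were tested on simulated data. For the comparisons between tumours and cultures, the simulated samples shared a common spread and had no pair effect. That test therefore does not cover the unequal spread of the real samples. The precision is limited by 3 samples per group.

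Same-numbered cultures deviated together from their group means (correlations 0.125 to 0.193 at 6 h and 0.130 to 0.307 at 16 h, all above 0.1), so the number was taken to pair them. It was a block in the main test of tumour against culture responses. The main tests among cultures left it out, and the blocked value is given where it changes a call. Tumour regions are paired by their tumour (0.0357 to 0.273).

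The text names every member, the members of each of 7 pathway lists past the threshold (at most 4 per comparison), and the 3 nearest genes of each member called in hypoxia. Members and lists were chosen with earlier results of these data known. Other normalizations, filters, variance priors, sample sets and the omission of single samples were tried.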

Additional observations from a re-analysis of the deposited data

Results flagged for a closer look

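The response of Ddit4 to hypoxia differed between tumours and cultures by a test of the difference itself: the tumour response minus the mean culture response was -1.37 on the log2 scale (limma, adjusted p = 0.0316). The call was lost in 9 of 17 alternatives, among them array weights (adjusted p = 0.115), no pair block (0.129) and leaving out any single culture pair (0.0508 to 0.101). The tumour responses were -0.14, -0.23 and 0.68 and the culture responses 0.86 to 2.15.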

How the results depend on the processing

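Counts of members called moved by more than 1.5 times as follows; the genes concerned stand in the report where they are named. With the spread estimated from all 18 arrays, 3 members were called at 16 h, 0 at 6 h and, with 9 pairs as blocks, 4 in tumours. At 6 h the count of 2 became 4 with the culture number as a replicate block and 1 with cyclic loess, with median centring or with the lowest Mxi1 probe set, and it ran from 0 to 2 when single samples were left out. The block changed no other call in the cultures. In tumours the count ran from 0 to 2 without single tumours, and for normoxic tumours against cultures from 1 to 3. That last count, 2, became 1 with array weights by kind of sample, an alternative chosen after seeing the data, 4 with cyclic loess and 5 with median centring or quantile normalization. Between normoxic cultures at 16 h and 6 h, 1 member, Cited2, was called with median centring. For tumour minus culture responses the count of 1 became 0 with array weights, with no replicate block and with quantile normalization, and it ran from 0 to 2 without single pairs. The causes were not tested.

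Signs turned for small differences. Cdkn1b at 6 h became 0.0022 with cyclic loess and 0.0070 with quantile normalization and ran from -0.10 to 0.045 without single samples. Cited2 at 6 h ran from -0.038 to 0.14, Stc2 from -0.058 to 0.14 at 6 h and from -0.092 to 0.12 at 16 h. Without single tumours Ddit4 ran from -0.19 to 0.27, Mxi1 from -0.26 to 0.46 and Myc from -0.61 to 0.37. The tumour minus culture response of Myc ran from -0.82 to 0.16 and that of Bhlhe41 from -0.31 to 0.14, and the latter was 0.24 with quantile normalization. Cited2 in normoxic tumours against cultures was 0.22 with cyclic loess and 0.17 with quantile normalization. At 16 h, Ccng2, Ddit4 and Ndrg1 stayed past the threshold in all 15 alternatives. The filter on dim probe sets and the variance prior moved no count of members by more than 1.5 times.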
